A study of Mus musculus with 12 samples.

Results

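The ATP-binding cassette (ABC) transporter genes of the mouse were followed in lens RNA. Members were taken by gene symbol alone, as every protein-coding gene named *Abc* with a subfamily letter from a to g, a number and, for some, a further letter. The rule found 50 genes among the 21936 protein-coding genes and 55487 gene identifiers of the count table, and used no measured value. RNA came from lenses of 7-day-old mice (P7) on the C57BL6/J background, in 12 libraries, each said to pool lenses of both sexes, 4 male and 4 female. Wild-type mice were compared with *Trpm3*-I/M mice, heterozygous for a knock-in of the p.I65M substitution in the cation channel TRPM3, and with *Trpm3*-M/M mice, homozygous for it. The knock-in was made with CRISPR/Cas-9. The fourth genotype, *Trpm3*-KO, carries an IRES-LacZ-neo cassette in *Trpm3*, placed there by homologous recombination, so that fusion transcripts of the gene are still made. Each genotype had 3 libraries, whose pools cannot be traced to litters, so p-values measure the spread between pools.

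ABC proteins bind and hydrolyze ATP at a pair of conserved nucleotide-binding domains. Most use the cycle to move a substrate across a membrane, either as a full transporter on 1 polypeptide or as a dimer of shorter ones. The A and G subfamilies mainly move sterols, phospholipids and retinoids, the B and C subfamilies move drugs, conjugates, peptides and mitochondrial metabolites, and the D subfamily serves peroxisomes and lysosomes. The E and F proteins have no membrane-spanning part and act on ribosomes, while the sulfonylurea receptors of the C subfamily gate a potassium channel instead of pumping. The lens has no blood supply of its own, and its fiber cells keep a membrane rich in cholesterol and lose their organelles. In the newborn mouse a transient vessel network still surrounds the lens capsule.

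The table gives estimated counts per gene, which the authors made with the DRAGEN software. They were rounded and scaled here with TMM factors, which adjust for a few very abundant RNAs taking a changing share of each library, and are given as CPM, the count relative to all scaled counts of the library. Totals on genes were 56162182 to 82090262 per library. A gene was tested where it reached a CPM of 5 in at least 3 of the 12 libraries, which left 8984 genes. For this filter, and for those at a CPM of 1, CPM was taken before TMM scaling. The TMM factors were 1.222 to 1.274 in *Trpm3*-M/M and 0.828 to 0.9051 in wild-type libraries. A printed CPM can therefore lie under 5 where the filter was passed. The targeted gene, *Trpm3*, averaged 268.5 CPM in wild-type and 95.3 CPM in *Trpm3*-KO libraries, and the knock-in genotypes were higher (386.6 CPM for *Trpm3*-I/M, 475.2 CPM for *Trpm3*-M/M). The library *Trpm3*-I/M replicate 3 stood apart: its *Xist* level was 0.0721 CPM, against 45.8 to 304.9 CPM in the other libraries, and its levels of *Ddx3y* (27.2 CPM) and *Eif2s3y* (27.98 CPM) were the highest of the 12. Its make-up of 4 male and 4 female lenses is therefore in doubt, and the tested genes were also compared without it. Of the 10 members that passed an adjusted p of 0.05 in *Trpm3*-I/M against wild-type, 8 passed without this library with their direction unchanged, while *Abce1* (adjusted p = 0.0516 by edgeR) and *Abcf2* (adjusted p = 0.119 by edgeR) did not. Lens fiber markers (*Cryaa*, *Mip*, *Bfsp1* and others, 9 gene identifiers) summed to 259800.0 to 287700.0 CPM in wild-type and 173500.0 to 180400.0 CPM in *Trpm3*-M/M libraries, with *Trpm3*-I/M between them at 213500.0 to 227500.0 CPM. Relative to the bulk of genes, all 9 fell in *Trpm3*-M/M (adjusted p of at most 0.05 by edgeR, median log2 fold change -0.805). For *Trpm3*-I/M, 8 of the 9 fell (6 without replicate 3). The size of these falls depends on the TMM factors. Scaling by library size only moves the median of all tested genes up by 0.504 in *Trpm3*-M/M, on the log2 scale. For *Trpm3*-I/M the median moves up by 0.2. On that scale the falls of the fiber markers, and of their sums, would be smaller. The part of the fiber markers in the results below was not tested.

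In all, 24 of the 50 genes were abundant enough to be tested. Of the other 26, 8 reached a CPM of 1 in at least 3 libraries, and 16 stayed lower, with no genotype mean above 0.647 CPM. *Abca14* and *Abca15* had no count in any library, and a count of 0 allows up to 3 counts. *Abca6*, *Abca16*, *Abcb5*, *Abcb11* and *Abcg5* never exceeded 3 counts. *Abca7*, *Abcb1a* and *Abcb1b* passed the filter only through the *Trpm3*-M/M libraries, where they were high, so they could not have been tested had they not differed. *Abca7* and *Abcb1a* are below the filter when any 1 *Trpm3*-M/M library is left out. These 3 genes are described by their values, with no p-value in comparisons with *Trpm3*-M/M. Counts over the tested members include them and are also given without them, a choice made after the data were seen.

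RefSeq's promoter table for GRCm38.p6 held 45 windows for 38 of the 50 genes. The 250 bases before the start are shown for *Abca13*, *Abcb1b*, *Abca1* and *Abca7*, because these 4 are called in the comparisons below and have the same start in RefSeq and GENCODE. Capitals mark every match, on either strand, to 1 of 6 short motifs. The GC box was searched as GGGCGG. The CCAAT box reads ATTGG when it lies on the other strand. The TATA box was searched as TATAAA, and the site of the AP-1 factors as TGANTCA. The E-box was searched as CACGTG. The antioxidant response element was searched as TGACNNNGC, with any base at N. No 2 of these motifs overlapped in the windows shown.

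Abca13 (chr11:9191692-9191941, plus strand): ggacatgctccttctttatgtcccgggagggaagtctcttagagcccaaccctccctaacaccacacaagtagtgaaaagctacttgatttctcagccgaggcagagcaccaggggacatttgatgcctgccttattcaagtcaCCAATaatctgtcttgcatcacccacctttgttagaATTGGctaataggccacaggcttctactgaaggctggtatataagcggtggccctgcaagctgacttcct
Abcb1b (chr5:8797897-8798146, plus strand): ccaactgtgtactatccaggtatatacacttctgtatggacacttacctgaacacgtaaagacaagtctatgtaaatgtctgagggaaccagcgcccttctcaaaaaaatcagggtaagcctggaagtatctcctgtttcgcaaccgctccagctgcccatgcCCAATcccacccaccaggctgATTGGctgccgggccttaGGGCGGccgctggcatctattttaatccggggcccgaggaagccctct
Abca1 (chr4:53159896-53160145, minus strand): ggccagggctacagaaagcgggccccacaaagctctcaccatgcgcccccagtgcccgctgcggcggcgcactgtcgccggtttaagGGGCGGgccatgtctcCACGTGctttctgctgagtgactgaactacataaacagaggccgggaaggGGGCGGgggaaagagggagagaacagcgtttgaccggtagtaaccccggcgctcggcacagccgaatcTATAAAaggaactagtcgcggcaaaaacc
Abca7 (chr10:79996244-79996493, plus strand): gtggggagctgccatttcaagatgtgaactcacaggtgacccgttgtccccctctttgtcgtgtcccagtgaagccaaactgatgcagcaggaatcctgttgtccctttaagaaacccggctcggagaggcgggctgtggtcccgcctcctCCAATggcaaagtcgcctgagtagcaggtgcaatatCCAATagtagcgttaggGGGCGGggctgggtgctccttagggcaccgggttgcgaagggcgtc

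The *Abca13* window held CCAAT boxes on both strands and none of the other motifs. The *Abcb1b* window held CCAAT on both strands and 1 GC box, and the *Abca7* window held CCAAT at 2 places and 1 GC box. The *Abca1* window held 2 GC boxes, an E-box and a TATA box 29 bases before the start. GGGCGG occurred in 32.7% of all 32851 promoter windows of this length and in 20 of the 45 windows of these genes (44.4%). CCAAT occurred in 33.8% of all windows and in 13 of the 45 (28.9%), TATAAA in 12.4% and 5 of the 45 (11.1%), and CACGTG in 6.02% and 5 of the 45 (11.1%). TGACNNNGC occurred in 10.2% of all windows and 4 of the 45 (8.89%) and TGANTCA in 6.75% and 0 of the 45. A match describes letters in the window and is not a bound site.

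In wild-type lens the most abundant of the tested genes per kilobase of exon were *Abca2*, a lipid transporter of endosomes and lysosomes, and *Abcf1*, which takes part in translation initiation. Levels per length are in CPM per kilobase (mean ± SD, n = 3). *Abca2* was at 17 ± 0.814 and *Abcf1* at 16.5 ± 0.131, a difference smaller than the SD of *Abca2*. The translation factor *Abcf2* followed at 10.04 ± 0.464. *Abcc8*, the sulfonylurea receptor SUR1, was at 6.16 ± 0.553 and did not separate from *Abce1*, the ribosome recycling factor, at 6.14 ± 0.103. *Abcf3*, a partner of the amino acid starvation response, was at 5.34 ± 0.322. Next came *Abca3*, the surfactant lipid transporter of lung, at 3.05 ± 0.0742, and *Abcb8*, a mitochondrial inner membrane protein, at 2.91 ± 0.0553. *Abcd3*, the peroxisomal membrane protein PMP70, was at 2.56 ± 0.0555. *Abcc6*, which in liver is needed for ATP release and for preventing calcification, was at 1.91 ± 0.472 and had the widest SD relative to its mean of these 10. All 4 genes of the E and F subfamilies were thus among the 10 most abundant. With the longest annotated transcript as the length, *Abcf1* (23.0) stood above *Abca2* (17.6), and *Abcc8* (10.2) was close to *Abcf2* (10.04) and *Abce1* (9.72), so the order at the top depends on the length used.

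**Figure D1:**
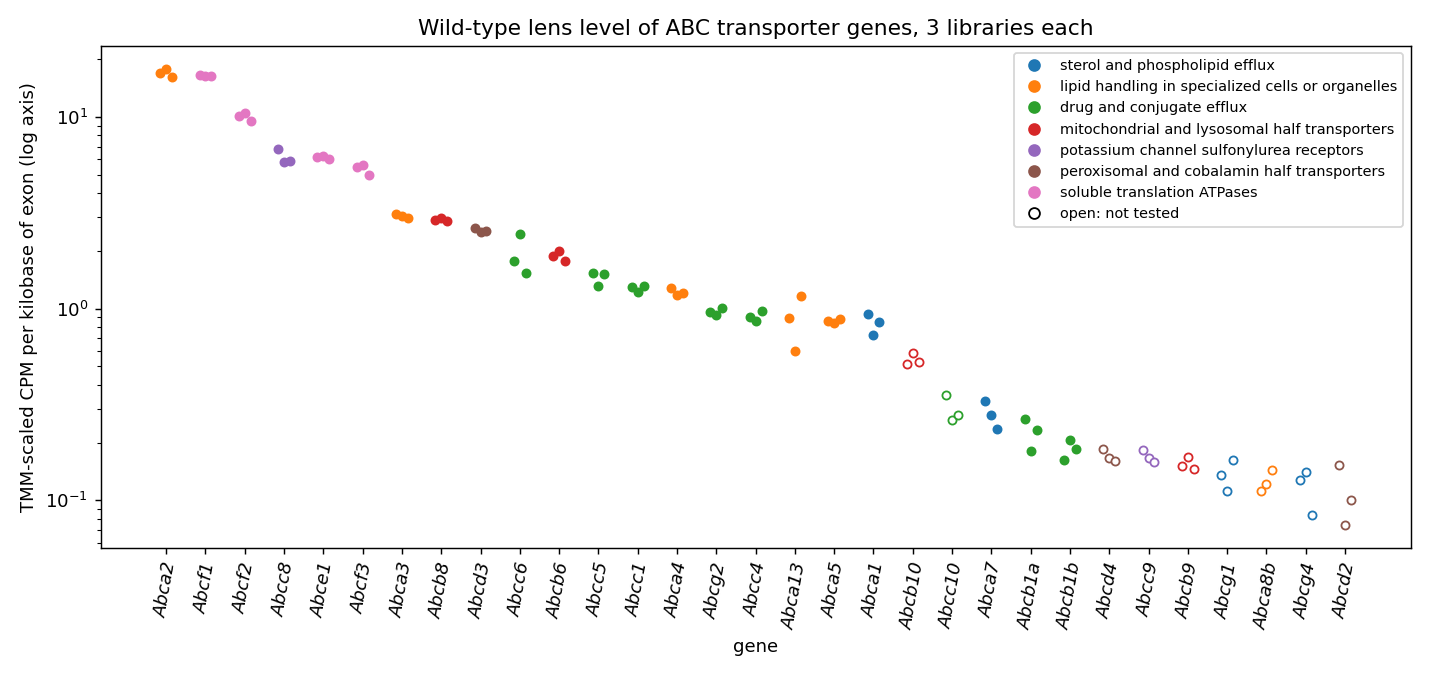
Level of 31 of the 33 most abundant ABC transporter genes in wild-type P7 lens, in TMM-scaled CPM per kilobase of exon on a log axis, with 1 point per library (3 each) colored by role and open points for genes that were not tested. *Abca2* and *Abcf1* lie highest, and the genes that rose most in mutant lenses, *Abca7*, *Abcb1a* and *Abcb1b*, lie below 1 CPM per kilobase.

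Against wild-type, *Trpm3*-M/M lenses showed higher RNA for *Abca1*, *Abca4*, *Abca7*, *Abcb1a* and *Abcb1b* and a near loss of *Abca13*. A gene was called where it changed at least 2-fold with an adjusted p of at most 0.05 (edgeR quasi-likelihood test, Benjamini-Hochberg over all 8984 genes). By that rule 6 of the 24 tested genes were called (25.0%), against 8.95% of all tested genes, but 3 of the 6 passed the filter only through the *Trpm3*-M/M libraries. Among genes that reach the filter without those libraries, 3 of 21 members were called (14.3%), against 6.28% of 8213 genes. The 5 higher calls stand beside 6.42% of all genes called higher, and the 1 lower call beside 2.53% called lower. Among the 21, 2 were called higher and 1 lower, beside 289 higher and 227 lower of the 8213 genes. With no fold threshold, 12 genes rose and 6 fell, or 75%, against 62.7% of all genes. Among the 21, 9 rose and 6 fell (71.4%, against 62.0% of the 8213 genes). Scaled by library size only, which moves the median of all tested genes by 0.504, 22 of the 24 rose and 1 fell. The 3 mutant and 3 wild-type libraries did not overlap for 18 of the 24 genes, *Abca7*, *Abcb1a* and *Abcb1b* among them, against 65.2% of all genes. The median log2 fold change of the 24 was 0.129, against -0.00417 over all tested genes. The smallest called change was 1.19 (*Abca1*) and the largest uncalled one 0.63 (*Abcc4*), on the log2 scale. In *Trpm3*-I/M, 2 of the 24 genes were called (8.33%, against 3.33% of all genes), *Abcb1b* higher (2.58% of all genes were called higher) and *Abca13* lower (0.746% lower); without the 3 genes it was 1 of 21. With no fold threshold 6 rose and 4 fell (13 and 2 by library size only), or 41.7% against 32.6%, the libraries did not overlap for 12 (44.6% of all genes), and the count of called genes without *Trpm3*-I/M replicate 3 was also 2. In *Trpm3*-KO 0 of the 24 were called by edgeR and 0 by DESeq2, against 0.568% of all genes by edgeR (0.234% higher, 0.334% lower), while 6 had an unadjusted p under 0.05. Its libraries did not overlap with wild-type for 7 of the 24 genes, against 23.2% of all genes. The 3 comparisons share the wild-type libraries.

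**Figure D2:**
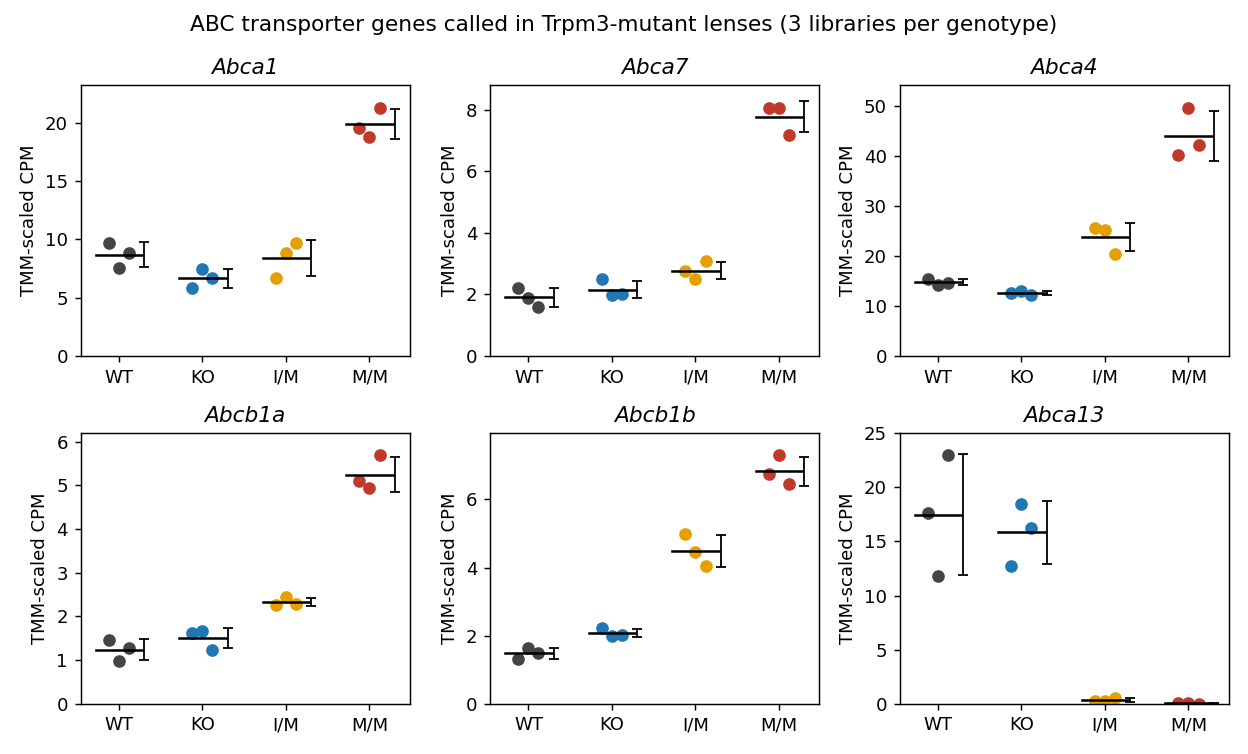
TMM-scaled CPM of the 6 called genes in every library of wild-type (WT), *Trpm3*-KO (KO), *Trpm3*-I/M (I/M) and *Trpm3*-M/M (M/M) lenses, each panel on its own axis from 0. Horizontal lines are means and bars SD (n = 3). The M/M libraries of *Abca1* lie at 18.8 to 21.3 CPM, above all others, while *Abca13* is at most 0.533 CPM in I/M and M/M.

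Among the sterol and phospholipid exporters, *Abca1* and *Abca7* were tested, the latter only through its level in *Trpm3*-M/M, and both were called higher there. *Abca1* (chr4:53030787-53159895, minus strand, GRCm38) passes cholesterol and phospholipid to apolipoprotein A-I. It stood at 9.73, 7.56 and 8.8 CPM in the wild-type libraries and 19.6, 18.8 and 21.3 CPM in *Trpm3*-M/M (log2 fold change 1.19, SE 0.13, adjusted p = 2.44e-06 by edgeR). *Trpm3*-I/M, at 6.7, 8.82 and 9.69 CPM, overlapped wild-type (log2 fold change -0.05, adjusted p = 0.798 by edgeR). *Trpm3*-KO libraries, at 5.85, 7.47 and 6.71 CPM, all lay below wild-type without passing the test (log2 fold change -0.38, SE 0.14, adjusted p = 0.149 by edgeR). The rise of *Abca1* was therefore seen in the homozygous mutant alone among the genotypes measured, and the direct comparison of *Trpm3*-M/M with *Trpm3*-I/M gave a log2 fold change of 1.24 (SE 0.12, adjusted p = 2.90e-06 by edgeR, and 1.35 without *Trpm3*-I/M replicate 3). The call held in each of the 19 alternative fits of *Trpm3*-M/M against wild-type, at 1.10 to 1.70.

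*Abca7* (chr10:79996494-80015572, plus strand), a close relative of *Abca1* known for phospholipid export and for phagocytosis, was at 2.22, 1.89 and 1.59 CPM in wild-type and 2.49, 1.97 and 2.01 CPM in *Trpm3*-KO. It was at 2.75, 2.5 and 3.07 CPM in *Trpm3*-I/M, as against 8.08, 8.07 and 7.19 CPM in *Trpm3*-M/M. The M/M libraries lay 4.09-fold above wild-type (log2 fold change 2.03, SE 0.13). The I/M libraries lay above all wild-type libraries by less than the 2-fold threshold (log2 fold change 0.54, SE 0.14, adjusted p = 0.00891 by edgeR, and 0.47 without *Trpm3*-I/M replicate 3, adjusted p = 0.0363).

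The other sterol exporters were below the filter. With a CPM of at least 1 as the filter (12638 genes tested), *Abcg1*, which moves sterol toward high-density lipoprotein, rose from 0.983, 0.819 and 1.19 CPM in wild-type to 2.21, 3.04 and 2.71 CPM in *Trpm3*-M/M (log2 fold change 1.39, SE 0.25). It was at 0.674, 0.741 and 0.98 CPM in *Trpm3*-I/M. In *Trpm3*-KO it was at 0.486, 0.778 and 0.263 CPM, and the 3 libraries lay below wild-type without passing the test (log2 fold change -0.96, adjusted p = 0.11 by edgeR). *Abcg4*, its close relative in neural tissue, was at 0.668, 0.735 and 0.436 CPM in wild-type and 1.26, 1.19 and 1.35 CPM in *Trpm3*-M/M (log2 fold change 1.03, SE 0.20). Both were called at that filter, at which 12.9% of all genes were called in *Trpm3*-M/M. However, both reached it only through the *Trpm3*-M/M libraries, so no p-value is given for them in comparisons with *Trpm3*-M/M. At that filter none of the 8 added members was called in *Trpm3*-I/M or *Trpm3*-KO (5.25% and 0.815% of all genes), and *Abcg1* was called in *Trpm3*-M/M against *Trpm3*-I/M (log2 fold change 1.72, SE 0.24), as were 7.98% of all genes. *Abcb4*, *Abcb11*, *Abcg5* and *Abcg8*, the exporters of bile, stayed below 0.6 CPM in every library.

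Of 16 genes for sterol sensing and lipoprotein handling, 11 were tested and *Apoe* was the 1 gene called. *Apoe*, a lipoprotein that accepts exported lipid, was at 6.65, 5.44 and 8.05 CPM in wild-type and 22.6, 29.3 and 23.8 CPM in *Trpm3*-M/M (log2 fold change 1.91, adjusted p = 1.32e-07 by edgeR). *Trpm3*-I/M, at 7.5, 6.77 and 5.26 CPM, overlapped wild-type. With no fold threshold 7 of the 11 rose and 2 fell in *Trpm3*-M/M (81.8%, against 62.7% of all genes in either direction). Among those that rose were *Srebf1*, a regulator of lipid synthesis (log2 fold change 0.67, adjusted p = 2.93e-07 by edgeR), and *Scarb1*, the receptor for high-density lipoprotein (log2 fold change 0.85, adjusted p = 3.84e-08 by edgeR). *Scarb1* also rose in *Trpm3*-I/M (log2 fold change 0.74, adjusted p = 6.06e-07 by edgeR, and 0.78 without replicate 3).

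Macrophages are known to use these exporters, and RNA of macrophage markers was summed in the same libraries. The 8 macrophage markers (*C1qa*, *Csf1r*, *Adgre1* and others), none abundant enough to be tested, summed to 0.317 to 0.452 CPM in wild-type and 0.336 to 0.344 CPM in *Trpm3*-KO. They summed to 0.865 to 1.08 CPM in *Trpm3*-I/M, as against 9.76 to 19.1 CPM in *Trpm3*-M/M. No marker of the list was at 0 in all libraries. Their part in the rise of *Abca1*, *Abca7*, *Abcg1* and *Apoe* was not tested. In these bulk pools, more cells of a type and more RNA per cell cannot be told apart.

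**Figure D3:**
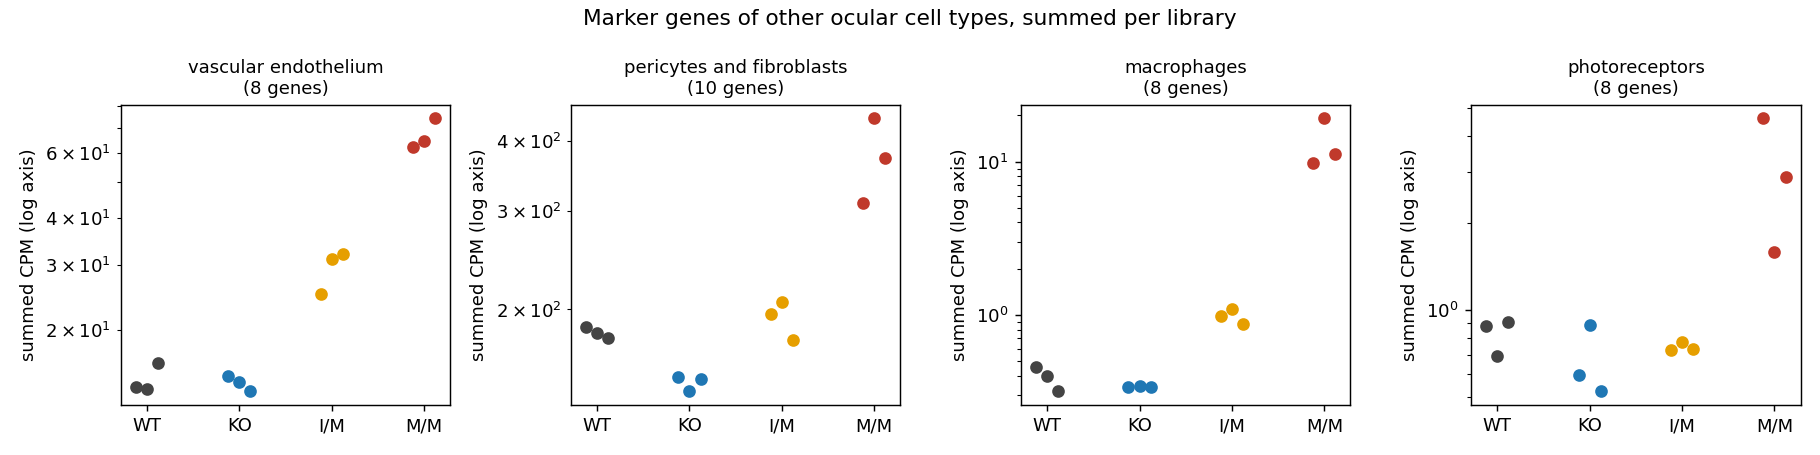
Summed TMM-scaled CPM of marker genes for vascular endothelium (8 genes), pericytes and fibroblasts (10), macrophages (8) and photoreceptors (8), with 1 point per library and 3 libraries per genotype, on log axes that differ between panels. Endothelial markers are higher in I/M and higher again in M/M, and macrophage and photoreceptor markers are highest in M/M.

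The lipid transporters of specialized cells and organelles held both the largest fall and a rise. *Abca13* (chr11:9191942-9684259, plus strand), 1 of the longest members of the A subfamily, was at 17.6, 11.8 and 23 CPM in wild-type and 12.7, 18.5 and 16.3 CPM in *Trpm3*-KO libraries. It was at 0.216, 0.219 and 0.533 CPM in *Trpm3*-I/M, as against 0.0375, 0.0759 and 0 CPM in *Trpm3*-M/M. In counts, the wild-type libraries held 896, 561 and 1159, the *Trpm3*-I/M libraries 16, 18 and 37, and the *Trpm3*-M/M libraries 3, 7 and 0. Both knock-in genotypes had thus nearly lost the RNA, while *Trpm3*-KO overlapped wild-type (log2 fold change -0.14, SE 0.22, adjusted p = 0.799 by edgeR). The fitted log2 fold change was -5.79 in *Trpm3*-I/M (SE 0.34, adjusted p = 5.12e-08 by edgeR) and -6.32 without replicate 3. In *Trpm3*-M/M it was -8.76 (SE 0.46, adjusted p = 2.50e-09 by edgeR), a value that rests on at most 7 counts per library and is imprecise. *Trpm3*-M/M lay below *Trpm3*-I/M (log2 fold change -2.98, SE 0.92, adjusted p = 0.0158 by edgeR), but the adjusted p was 0.0694 without *Trpm3*-I/M replicate 3 and 0.0629 without *Trpm3*-M/M replicate 3.

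*Abca4* (chr3:122044443-122180123, plus strand), which flips retinoid-phospholipid conjugates in photoreceptor outer segments, was at 15.4, 14.2 and 14.6 CPM in wild-type and 12.6, 13 and 12.2 CPM in *Trpm3*-KO libraries. It was at 25.7, 25.2 and 20.5 CPM in *Trpm3*-I/M, as against 40.3, 49.7 and 42.1 CPM in *Trpm3*-M/M libraries, so the 4 genotypes did not overlap. *Trpm3*-M/M was 2.99-fold above wild-type (log2 fold change 1.58, SE 0.09, adjusted p = 7.44e-09 by edgeR) and *Trpm3*-I/M 1.61-fold above it (log2 fold change 0.69, SE 0.09, adjusted p = 7.96e-05 by edgeR, and 0.79 without replicate 3). The lower level in *Trpm3*-KO did not pass the test (adjusted p = 0.227 by edgeR). The 8 photoreceptor markers (*Sag*, *Gnat1* and others), none of them tested, summed to 0.693 to 0.912 CPM in wild-type, 0.728 to 0.778 CPM in *Trpm3*-I/M, as against 1.58 to 4.6 CPM in *Trpm3*-M/M. Their part in the rise of *Abca4* was not tested. The markers of retinal pigment epithelium and pigmented cells (8 genes) summed to 3.3 to 3.83 CPM in wild-type, 5.45 to 6.31 CPM in *Trpm3*-I/M, as against 3.64 to 4.07 CPM in *Trpm3*-M/M, with *Rpe65* at 0 in all libraries.

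*Abca5*, a lysosomal family member, fell in both knock-in genotypes by less than 2-fold, although by library size only its value in *Trpm3*-M/M was 0.041 (adjusted p = 0.673 by edgeR). It was at 9.87, 9.66 and 10.03 CPM in wild-type, 6.46, 6.4 and 7.14 CPM in *Trpm3*-I/M, as against 6.99, 6.8 and 7.58 CPM in *Trpm3*-M/M. The log2 fold change was -0.57 in *Trpm3*-I/M (SE 0.07, adjusted p = 7.07e-05 by edgeR, and -0.62 without replicate 3) and -0.47 in *Trpm3*-M/M (SE 0.07, adjusted p = 9.33e-05 by edgeR). *Abca2*, the most abundant member, fell in *Trpm3*-I/M from 141, 149 and 135 CPM to 114, 119.7 and 119.8 CPM (log2 fold change -0.27, SE 0.05, adjusted p = 0.00122 by edgeR, and -0.28 without replicate 3). By library size only this value was -0.065 (adjusted p = 0.338 by edgeR). In *Trpm3*-M/M *Abca2* was at 135, 148 and 137 CPM and overlapped wild-type (adjusted p = 0.809 by edgeR), although by library size only its log2 fold change was 0.50 (adjusted p = 1.5e-06 by edgeR). *Abca3* rose slightly in both, from 29.2, 28.7 and 27.9 CPM to 32.6, 33.8 and 31.7 CPM in *Trpm3*-M/M (log2 fold change 0.19, SE 0.05, adjusted p = 0.00212 by edgeR), with 9.75% of its exon bases opposite exons of *D330041H03Rik*. *Abca8b*, at 0.826, 0.903 and 1.07 CPM in wild-type and 1.33, 1.29 and 1.15 CPM in *Trpm3*-M/M, was below the filter, and with a CPM of 1 as the filter it had a log2 fold change of 0.40 (adjusted p = 0.0437 by edgeR). The other 8 genes of this group, *Abca6*, *Abca8a*, *Abca9*, *Abca12* and *Abca14* to *Abca17*, stayed under 0.4 CPM in every library.

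Of the 13 drug and conjugate exporters 7 were tested in *Trpm3*-M/M, of which 5 rose with no fold threshold (71.4%, against 62.7% of all genes in either direction) and 0 fell. The 2 that were called, *Abcb1a* and *Abcb1b*, are those that passed the filter only through *Trpm3*-M/M. Without them 3 of 5 rose and 0 fell (60.0%). This compares with 62.0% of the 8213 genes that reach the filter without *Trpm3*-M/M. *Abcb1a* (chr5:8660077-8748575, plus strand) and *Abcb1b* (chr5:8798147-8866315, plus strand) are neighbors that encode the 2 mouse P-glycoproteins, pumps for many hydrophobic drugs. *Abcb1b* was at 1.3, 1.64 and 1.49 CPM in wild-type, 2.22, 1.99 and 2.03 CPM in *Trpm3*-KO, 4.97, 4.45 and 4.04 CPM in *Trpm3*-I/M, as against 6.74, 7.3 and 6.44 CPM in *Trpm3*-M/M. No genotype overlapped another. It was 4.63-fold above wild-type in *Trpm3*-M/M (log2 fold change 2.21, SE 0.11). In *Trpm3*-I/M it was 3.05-fold above wild-type (log2 fold change 1.61, SE 0.12, adjusted p = 3.00e-07 by edgeR, and 1.68 without replicate 3). In *Trpm3*-KO it was the 1 tested member with an adjusted p of at most 0.05, 1.41-fold above wild-type (log2 fold change 0.50, SE 0.13, adjusted p = 0.0458 by edgeR). That 1 of 24 (4.17%) compares with 4.36% of all genes.

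*Abcb1a* was at 1.45, 0.987 and 1.27 CPM in wild-type and 1.61, 1.66 and 1.24 CPM in *Trpm3*-KO, which overlapped. It was at 2.25, 2.44 and 2.29 CPM in *Trpm3*-I/M, as against 5.1, 4.93 and 5.69 CPM in *Trpm3*-M/M. It was 4.22-fold above wild-type in *Trpm3*-M/M (log2 fold change 2.08, SE 0.14). In *Trpm3*-I/M it rose 1.88-fold, just under the 2-fold threshold (log2 fold change 0.91, SE 0.15, adjusted p = 3.81e-04 by edgeR, and 0.92 without replicate 3), and it was past the threshold without wild-type replicate 1 (1.04). The genes share sequence: 16.3% of the 50-base windows of *Abcb1a* transcripts (889 of 5459) also occur in *Abcb1b*, and 11.1% of those of *Abcb1b* in *Abcb1a*. How the authors' counting divided reads from those windows is not known, so the split between the pair is uncertain. A further 10.1% of the exon bases of *Abcb1a* lie opposite exons of *Gm42686* and 1.79% of those of *Abcb1b* opposite *Gm5106*.

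P-glycoprotein is a known product of capillary endothelium, and RNA of endothelial markers was summed in the same libraries. The 8 endothelial markers (*Pecam1*, *Cdh5*, *Cldn5* and others) summed to 13.9 to 16.4 CPM in wild-type, 13.8 to 15.1 CPM in *Trpm3*-KO, 25.1 to 32 CPM in *Trpm3*-I/M, as against 62.3 to 74.2 CPM in *Trpm3*-M/M. Of the 7 that were tested, 6 were called higher in each of the knock-in genotypes, and none was at 0 in all libraries. The other, *Egfl7*, was lower in *Trpm3*-I/M (log2 fold change -0.30, adjusted p = 0.0241 by edgeR, and 0.0758 without replicate 3). In *Trpm3*-M/M *Egfl7* did not pass the test against wild-type. Of the 7, 5 passed the filter only through *Trpm3*-M/M. The 10 pericyte and fibroblast markers summed to 178 to 186 CPM in wild-type, 177 to 206 CPM in *Trpm3*-I/M, as against 310.4 to 439.9 CPM in *Trpm3*-M/M, and in *Trpm3*-M/M 4 of the 7 tested were called higher while 2 were called lower, 3 of the 7 having passed the filter only through *Trpm3*-M/M. The 4 cornea markers, none tested, summed to 0.236 to 0.436 CPM in wild-type and 0.231 to 0.418 CPM in *Trpm3*-I/M, as against 3.66 to 6.72 CPM in *Trpm3*-M/M, and the 5 of red blood cells to 1.22 to 11.9 CPM in wild-type and 12.4 to 14.9 CPM in *Trpm3*-M/M. The part of these cells in the rise of *Abcb1a*, *Abcb1b* and the other genes that rose was not tested.

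**Figure D4:**
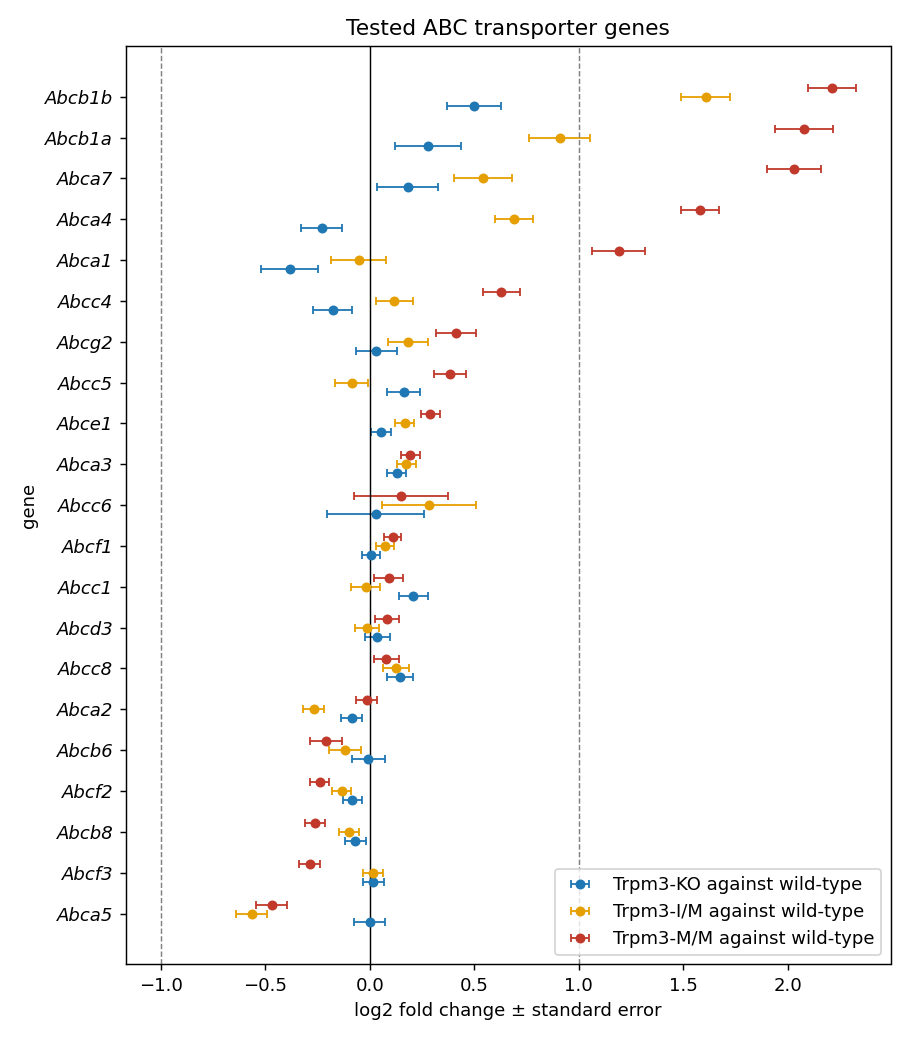
Log2 fold change against wild-type of 21 of the tested ABC transporter genes, without *Abca13*, which lies off this scale, with bars for the standard error from the edgeR fit of all 12 libraries and dashed lines at 2-fold. Genes are ordered by their change in *Trpm3*-M/M, with *Abcb1b* highest at 2.21 and *Abca5* lowest at -0.47.

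The remaining conjugate exporters that were tested changed by less than 2-fold. *Abcc4*, an exporter of cyclic nucleotides and prostaglandins, was at 5.76, 5.48 and 6.22 CPM in wild-type, 6.92, 6.1 and 5.95 CPM in *Trpm3*-I/M, as against 8.11, 9.82 and 9.1 CPM in *Trpm3*-M/M (log2 fold change 0.63, SE 0.09, adjusted p = 3.20e-05 by edgeR). *Abcc5*, another exporter of cyclic nucleotides, rose from 16.5, 14.1 and 16.1 CPM to 19.6, 20.8 and 20.4 CPM in *Trpm3*-M/M (log2 fold change 0.38, SE 0.08, adjusted p = 7.47e-04 by edgeR), and *Abcg2*, the breast cancer resistance protein, from 7.81, 7.58 and 8.17 CPM to 11.2, 9.59 and 10.6 CPM (log2 fold change 0.41, SE 0.09, adjusted p = 0.00189 by edgeR). None of these 3 passed the test in *Trpm3*-I/M (adjusted p from 0.165 to 0.443 by edgeR). *Abcc1*, which exports glutathione conjugates, was at 19.5, 18.3 and 19.8 CPM in wild-type and 21.1, 20.3 and 20.04 CPM in *Trpm3*-M/M and did not pass (adjusted p = 0.268 by edgeR). *Abcc6* ranged so widely within wild-type, at 10.1, 13.9 and 8.74 CPM, that its SE was 0.23 and no change was detectable (adjusted p = 0.585 by edgeR). Below the filter, *Abcc10* was at 2.42, 1.81 and 1.9 CPM in wild-type and 2.11, 2.24 and 2.11 CPM in *Trpm3*-M/M (log2 fold change 0.05, adjusted p = 0.739 by edgeR with a CPM of 1 as the filter). *Abcb5*, *Abcc2*, *Abcc3*, *Abcc12* and *Abcg3* stayed under 0.7 CPM. With no filter on low counts 2 of these were called in *Trpm3*-M/M, *Abcc3* higher, at 3, 1 and 2 counts in wild-type and 23, 24 and 22 counts in *Trpm3*-M/M, and *Abcc12* lower, at 12, 17 and 21 counts and 9, 11 and 15 counts.

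Of 12 genes for xenobiotic and oxidant sensing 9 were tested. *Gclm*, a subunit of the enzyme that begins glutathione synthesis, was called higher in *Trpm3*-M/M, from 30.3, 30.4 and 31 CPM to 61.6, 70.8 and 58.2 CPM (log2 fold change 1.05, adjusted p = 2.12e-08 by edgeR). *Hmox1*, heme oxygenase, was called lower, from 1116, 1238 and 1212 CPM to 723, 622 and 416 CPM (log2 fold change -1.02, adjusted p = 3.68e-05 by edgeR). *Nr1i3*, the nuclear receptor CAR and a known regulator of drug transporters, rose in *Trpm3*-I/M (log2 fold change 0.61, adjusted p = 2.61e-04 by edgeR, and 0.62 without replicate 3) and fell in *Trpm3*-M/M (log2 fold change -0.66, adjusted p = 6.21e-05 by edgeR). Scaling by library size only moves the median of all tested genes up by 0.504 in *Trpm3*-M/M. On that scale the falls of *Hmox1* and *Nr1i3* would be smaller, and that of *Hmox1* under 2-fold. With no fold threshold 3 of the 9 rose and 4 fell in *Trpm3*-M/M (77.8%, against 62.7% of all genes in either direction).

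The sulfonylurea receptors were set beside the pores they join. *Abcc8* (SUR1) was at 55, 47 and 47.5 CPM in wild-type, 52, 55.8 and 55.3 CPM in *Trpm3*-I/M, as against 54.7, 53 and 50.2 CPM in *Trpm3*-M/M, with overlapping libraries and an adjusted p of 0.275 by edgeR in *Trpm3*-M/M. *Kcnj11*, the pore subunit that SUR1 joins, fell from 40.01, 35.5 and 34.7 CPM to 29.3, 31.3 and 31.8 CPM in *Trpm3*-I/M (log2 fold change -0.26, adjusted p = 0.00676 by edgeR, and -0.28 without replicate 3). In *Trpm3*-M/M it was at 18.8, 20.02 and 20.5 CPM (log2 fold change -0.89, adjusted p = 4.95e-08 by edgeR). *Abcc9* (SUR2), at 1.53, 1.39 and 1.33 CPM in wild-type and 3.01, 2.49 and 2.84 CPM in *Trpm3*-M/M, rose by less than 2-fold with a CPM of 1 as the filter (log2 fold change 0.95, SE 0.19, adjusted p = 6.78e-04 by edgeR). Its partner *Kcnj8* was not tested and stood at 0.0197, 0.021 and 0.0198 CPM in wild-type and 0.488, 0.325 and 0.451 CPM in *Trpm3*-M/M. SUR2 and *Kcnj8* are known from pericytes and vascular muscle, whose marker sums are given above.

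The dimeric transporters of mitochondria and lysosomes changed by less than 2-fold. *Abcb8* fell from 13.7, 14.1 and 13.5 CPM in wild-type to 11.7, 11.6 and 11.1 CPM in *Trpm3*-M/M (log2 fold change -0.26, SE 0.05, adjusted p = 3.53e-04 by edgeR). *Abcb6*, a porphyrin transporter, had a log2 fold change of -0.21 (adjusted p = 0.0286 by edgeR), a direction that also turns with library size only (0.30), and its value is uncertain because 55.2% of its exon bases are shared with the same-strand gene model *Gm29253*. Below the filter and with a CPM of 1 in its place, *Abcb10*, needed for heme synthesis (10.3% of its exon bases lie opposite *Gm45890*), rose from 2.2, 2.52 and 2.26 CPM to 3.51, 3.44 and 3.1 CPM in *Trpm3*-I/M, as against 3.3, 3.27 and 3.32 CPM in *Trpm3*-M/M (log2 fold change 0.52 and 0.48, adjusted p = 0.00176 and 0.00112 by edgeR). *Abcb9*, a lysosomal peptide transporter, rose in *Trpm3*-M/M from 0.845, 0.945 and 0.813 CPM to 1.49, 2.19 and 1.53 CPM (log2 fold change 0.98, SE 0.24), just under 2-fold. It reached the filter at a CPM of 1 only through the *Trpm3*-M/M libraries, so no p-value is given. Of 15 genes for heme and iron-sulfur synthesis 10 were tested and 0 called in *Trpm3*-M/M by edgeR, while 5 rose and 4 fell with no fold threshold, as did 62.7% of all genes in either direction.

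*Abcb9* is related to the antigen peptide transporters *Tap1* and *Tap2*, which belong to the B subfamily without carrying its symbol. Both were below the filter, *Tap1* at 0.295, 0.231 and 0.496 CPM in wild-type and 0.95, 1.02 and 0.869 CPM in *Trpm3*-M/M, and *Tap2* at 0.236, 0.189 and 0.357 CPM and 1.1, 1.41 and 1.12 CPM. Their M/M libraries lay above all wild-type libraries. Of 8 genes for antigen peptide loading 7 were tested. The 4 that reach the filter without the *Trpm3*-M/M libraries all rose in *Trpm3*-M/M with no fold threshold, none of them by 2-fold, and the other 3 passed the filter only through *Trpm3*-M/M, where they were high. Of these, the class I chain *H2-D1* was at 0.845, 1.09 and 1.01 CPM in wild-type and 8.15, 12.5 and 8.88 CPM in *Trpm3*-M/M (log2 fold change 3.33). *B2m* (log2 fold change 2.99) and *H2-K1* (log2 fold change 1.98) were the others that passed in this way. In *Trpm3*-I/M 0 of the 7 were called by edgeR, while 3 rose with no fold threshold. *Cftr*, the chloride channel of the C subfamily, was at most 0.0393 CPM in any library.

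The peroxisomal membrane protein *Abcd3* did not pass the test in any genotype. It was at 17.3, 16.6 and 16.7 CPM in wild-type and 16.9, 17.2 and 19.6 CPM in *Trpm3*-M/M (log2 fold change 0.08, adjusted p = 0.229 by edgeR). *Abcd4*, a lysosomal protein of cobalamin export, rose in *Trpm3*-M/M with a CPM of 1 as the filter, from 1.47, 1.32 and 1.29 CPM to 1.88, 2.46 and 2.12 CPM (log2 fold change 0.64, SE 0.15, adjusted p = 0.00231 by edgeR). *Abcd2* was below 1 CPM throughout. Of 12 genes for peroxisome import and fatty acid oxidation 10 were tested, 0 were called in *Trpm3*-M/M by edgeR, and 3 rose and 3 fell with no fold threshold (60.0%, against 62.7% of all genes in either direction).

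**Figure D5:**
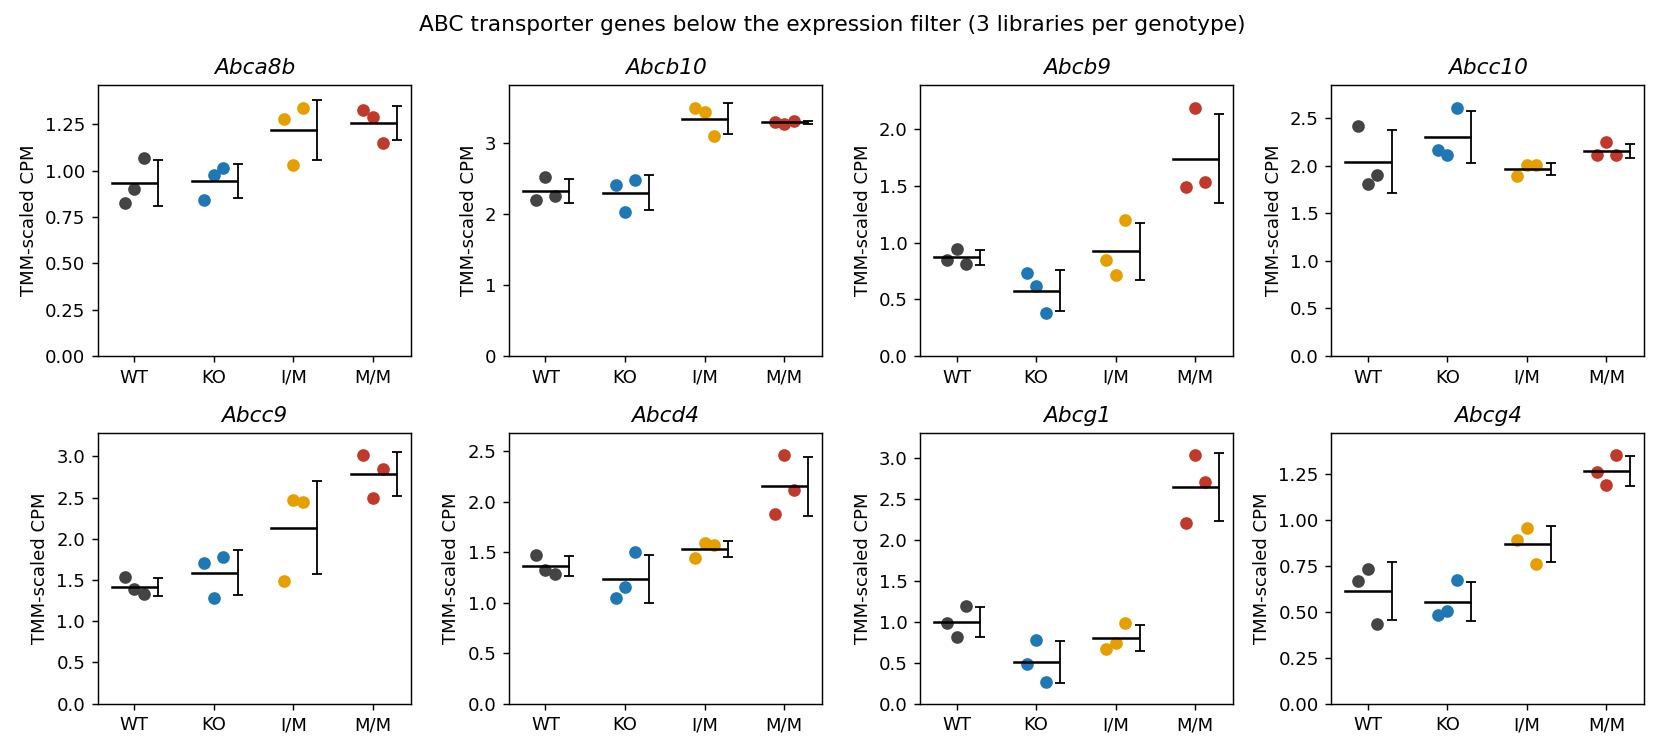
TMM-scaled CPM of the 8 ABC transporter genes that missed the main filter but reached a CPM of 1 in at least 3 libraries, in every library of the 4 genotypes, with means and SD bars (n = 3). *Abcg1* and *Abcg4* lie highest in M/M, and the WT and M/M libraries of *Abcc10* overlap.

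The soluble proteins of translation moved in both directions and by little. *Abce1*, which splits ribosomes after termination, rose from 37, 37.4 and 36.2 CPM to 40.9, 41.3 and 42 CPM in *Trpm3*-I/M, as against 44.9, 42.7 and 47.6 CPM in *Trpm3*-M/M (log2 fold change 0.17 and 0.29, adjusted p = 0.0139 and 1.06e-04 by edgeR). *Abcf1* rose from 73.2, 72.4 and 72.1 CPM to 82.7, 75.6 and 76.4 CPM (log2 fold change 0.11, SE 0.04, adjusted p = 0.0369 by edgeR). *Abcf2* fell from 26.1, 26.8 and 24.5 CPM to 22.2, 21.4 and 22.1 CPM (log2 fold change -0.24, SE 0.05, adjusted p = 4.93e-04 by edgeR), and *Abcf3* from 19.5, 19.9 and 17.7 CPM to 15.2, 15.7 and 15.8 CPM (log2 fold change -0.29, SE 0.05, adjusted p = 1.75e-04 by edgeR). The falls of *Abcf2*, *Abcf3* and *Abcb8* turn into rises when libraries are scaled by size only, so these directions hold relative to the bulk of genes. Of 8 genes for translation termination and ribosome recycling, 0 were called in *Trpm3*-M/M by edgeR, 1 rose and 4 fell with no fold threshold (62.5%, against 62.7% of all genes in either direction).

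*Trpm3*-M/M lenses were also compared directly with *Trpm3*-I/M lenses, which tests the difference between homozygous and heterozygous mutants. Of the 24 genes 4 were called (16.7%, against 4.70% of all genes): *Abca1*, *Abca7* and *Abcb1a* higher, against 3.67% of all genes called higher, and *Abca13* lower, against 1.02%. Among those that reach the filter without *Trpm3*-M/M it was 2 of 21 (9.52%, against 2.30%). Of those 21 members 1 was called higher and 1 lower, beside 97 higher and 92 lower of the 8213 genes. With no fold threshold 9 were higher and 3 lower (21 and 1 by library size only), or 12 of the 24, against 51.3% of all genes. Among the 21, 6 were higher and 3 lower (42.9%, against 49.9%). The libraries did not overlap for 13 of the 24, *Abca7*, *Abcb1a* and *Abcb1b* among them, against 60.5%. *Abca7* gave a log2 fold change of 1.49 and *Abcb1a* one of 1.17. *Abca4* (0.89, adjusted p = 2.77e-06 by edgeR) and *Abcb1b* (0.61) were higher by less than 2-fold. Without *Trpm3*-I/M replicate 3 the count was 3, because *Abca13* dropped out. Leaving out *Trpm3*-M/M replicate 1 or 2 left 2 called, because *Abca7* and *Abcb1a* then no longer reached the filter of 3 libraries, and leaving out replicate 3 left 1, since *Abca13* also lost its call (adjusted p = 0.0629 by edgeR).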

How the data were processed

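The authors made base calls with bcl2fastq2, aligned and quantified NovaSeq reads with DRAGEN against Ensembl release 101 (mm10 per the labels), and deposited an unscaled estimated count for each gene and library. A second deposited table repeats these counts for 9470 genes with CPM per library and the authors' own log2 fold changes and p-values; its comparison columns were not used.

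Estimated counts (88.4% whole) were rounded. The quasi-likelihood test of edgeR 4.0.16 in R 4.3.3 was run with TMM factors on all 12 libraries in one fit, with genotype as the only factor. It covered genes with a CPM of at least 5, taken before TMM scaling, in at least 3 libraries. P-values were adjusted over all tested genes, and calls needed a change of at least 2-fold and an adjusted p of at most 0.05. The design assumed counts, and rounding was added once the values were seen to be estimates. Lengths and GRCm38 coordinates came from GENCODE M21. A test used simulated data of *Trpm3*-M/M against wild-type (8467 genes). In it, 100% of genes changed 2-fold, 3-fold or 4-fold passed an adjusted p of 0.05 in the right direction. Among unchanged genes 8 passed that adjusted p. The 2-fold rule was not applied there, so these figures do not describe the calls. DESeq2 1.42.0, other scalings, other filters, a block and left-out libraries were alternatives. Python 3.11.15 drew the figures.

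Genes were named by rule: every called member, the 10 most abundant tested members per kilobase in wild-type, the largest other change in each role group, members with a CPM of at least 1 in at least 3 libraries, and called or partnering genes of the lists. Other members are given by range or, where they passed the test, by value. The members, role groups and lists were chosen with earlier results of these data known. Some genes are not reported here. Intervals and floors cover counting error only. Replicate numbers come from the sample labels.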

Additional observations from a re-analysis of the deposited data

Results flagged for a closer look

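Called differences between the homozygous and the heterozygous mutant were found for 4 genes by the direct comparison of *Trpm3*-M/M with *Trpm3*-I/M (edgeR, 3 libraries each). The log2 fold change was 1.24 for *Abca1*, 1.49 for *Abca7*, 1.17 for *Abcb1a* and -2.98 for *Abca13*, and the 3 libraries of each genotype did not overlap for any of the 4. The value of *Abca13* rests on at most 7 counts in each *Trpm3*-M/M library and lost its call without *Trpm3*-I/M replicate 3 or *Trpm3*-M/M replicate 3. *Abca7* and *Abcb1a* passed the filter only through the *Trpm3*-M/M libraries. No rule for single outlying values was applied to groups of 3 libraries.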

How the results depend on the processing

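Of 1568 log2 fold changes of named genes taken under the alternatives, 1530 kept their side of the thresholds and, where the adjusted p was at most 0.05, their direction. A further 29 came to be called, 2 lost their call and 7 reversed. Most of the 29 came from dropping the fold threshold, which leaves the fold change itself unchanged. All reversals came with library size only. They were *Abca5* (0.041), *Abcf2* (0.27), *Abcf3* (0.22) and *Abcb8* (0.25) in *Trpm3*-M/M against wild-type, *Abcf2* (0.068) in *Trpm3*-I/M against wild-type, and *Abcb8* (0.14) and *Abcf3* (0.0052) in *Trpm3*-M/M against *Trpm3*-I/M. This scaling moved the median gene by 0.504, 0.2 and 0.308 in these comparisons. The same scaling put *Abcc4* (1.14) past 2-fold in *Trpm3*-M/M, *Abcb1a* (1.11) in *Trpm3*-I/M and *Abca4* (1.20) in *Trpm3*-M/M against *Trpm3*-I/M. With no fold threshold the counts of called genes were 18, 10, 1 and 12 in *Trpm3*-M/M, *Trpm3*-I/M and *Trpm3*-KO against wild-type and *Trpm3*-M/M against *Trpm3*-I/M. With no filter on low counts they were 11 in *Trpm3*-M/M against wild-type (*Abca9*, *Abcc3*, *Abcc12*, *Abcg1* and *Abcg4* being added) and 8 in *Trpm3*-M/M against *Trpm3*-I/M. Counting only genes that reach the filter without the *Trpm3*-M/M libraries, an alternative chosen after seeing the data, gave 3, 1, 0 and 2 calls in the 4 comparisons. With only the compared genotypes in the fit, 1 gene was called in *Trpm3*-I/M against wild-type, because *Abcb1b* then missed the filter. Leaving out each library in turn gave 4 to 6 calls in *Trpm3*-M/M, 2 to 3 in *Trpm3*-I/M, 0 in *Trpm3*-KO and 1 to 4 in *Trpm3*-M/M against *Trpm3*-I/M, where each *Trpm3*-M/M library (2, 2 and 1 calls without replicates 1, 2 and 3) and *Trpm3*-I/M replicate 3 decided a call. *Abca13* in the last comparison was -2.45 without *Trpm3*-I/M replicate 3 and -2.39 without *Trpm3*-M/M replicate 3, the adjusted p-values being those given above. DESeq2 called 6, 2, 0 and 4 genes. Same-numbered libraries did not deviate together (r from -0.264 to 0.149, and 0 of 12 libraries correlated best with their own number), so the replicate numbers do not pair them, and the fit with the replicate block called 6, 2, 0 and 4 genes. The longest transcript as length moved the wild-type level per kilobase of 13 named genes by more than 1 SD. Among the 26 untested genes, few counts limit *Abca14* and *Abca15*, which had none, and 16 others, with genotype means of at most 0.647 CPM.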
